A study of Mus musculus with 59 samples.

Results

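Meg3-normal and Meg3-low clones are the 2 classes into which the 6 induced pluripotent stem cell (iPSC) clones labelled as derived from TTFs of chimera 2 were split by the level of 2 imprinted RNAs. The members were chosen by the measured array values of Meg3 and Rian, so those 2 genes are described and not tested. A clone was called Meg3-normal when Meg3 and Rian, each read from its brightest probe set, both lay within 1 log2 unit of the mean of the 4 embryonic stem cell (ESC) clones, and Meg3-low otherwise. The rule placed iPSC-44, iPSC-47 and iPSC-49 in the Meg3-normal class and iPSC-45, iPSC-46 and iPSC-48 in the Meg3-low class. These are 6 of the 59 arrays of the series and 6 of its 48 iPSC clones of the cassette lines. A further line labelled Adeno-iPSC is not counted among the 48. Every line was measured once, on an Affymetrix expression array. TTF is the usual abbreviation for tail-tip fibroblast, which the labels do not spell out. Per the series' design text, the 48 iPSC were made from somatic tissues of chimeras, whose ESC-derived cells carried an inducible cassette for myc, Klf4, Oct4 and Sox2. By the labels, the 4 ESC lines were targeted KH2 ESC. All lines grew on irradiated MEFs with serum and LIF, and were preplated to remove the MEFs before RNA extraction. The 6 TTF clones thus share 1 animal, 1 cell type of origin and 1 cassette, and each clone is a line of its own. A test between the classes measures the spread between clones of that animal.

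Meg3 and Rian are long noncoding RNAs of the imprinted Dlk1-Dio3 region on mouse chromosome 12. They are transcribed from the maternal chromosome, and a differentially methylated region upstream of Meg3 sets which parental copy is used. The same control region keeps Dlk1, Rtl1 and Dio3 expressed from the paternal chromosome. In mouse iPSC the region is known for silencing of the maternal transcripts in many clones. Whether clones with high and low Meg3 otherwise differ in their transcriptome is the question this comparison addresses.

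The 3 promoter windows below belong to Meg3, which with Rian defined the classes, to the paternally expressed neighbour on the same chromosome, and to the imprinted gene with the smallest unadjusted p among those named below. Each runs from 250 bases before to 50 bases after an annotated start, is taken from RefSeq (GRCm38.p6), and has every CG dinucleotide, the site of mammalian DNA methylation, in capitals.
Meg3, chr12:109540746-109541045, plus strand: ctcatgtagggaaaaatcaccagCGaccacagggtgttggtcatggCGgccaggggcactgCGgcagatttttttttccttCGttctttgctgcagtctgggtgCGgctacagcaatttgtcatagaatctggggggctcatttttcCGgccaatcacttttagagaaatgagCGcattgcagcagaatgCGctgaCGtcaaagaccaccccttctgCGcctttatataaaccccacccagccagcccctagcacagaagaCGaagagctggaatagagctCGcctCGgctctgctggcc
Dlk1, chr12:109452573-109452872, plus strand: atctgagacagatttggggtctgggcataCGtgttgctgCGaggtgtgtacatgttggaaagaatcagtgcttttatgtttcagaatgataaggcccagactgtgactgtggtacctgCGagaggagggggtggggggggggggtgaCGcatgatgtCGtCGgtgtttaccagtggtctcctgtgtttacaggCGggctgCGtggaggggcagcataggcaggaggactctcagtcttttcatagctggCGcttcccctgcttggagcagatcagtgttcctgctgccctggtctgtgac
Grb10, chr11:12037371-12037670, minus strand: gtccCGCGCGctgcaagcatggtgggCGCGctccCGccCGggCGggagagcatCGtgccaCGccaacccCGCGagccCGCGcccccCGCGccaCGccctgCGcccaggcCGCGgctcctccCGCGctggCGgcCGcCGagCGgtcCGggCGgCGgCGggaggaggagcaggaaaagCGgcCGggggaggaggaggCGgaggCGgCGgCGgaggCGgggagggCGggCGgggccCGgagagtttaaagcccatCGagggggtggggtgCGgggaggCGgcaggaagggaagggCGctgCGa
The Meg3 window held 13 CG, a number reached by 37.911% of the 32851 mouse windows in the table, whose median was 7. For Meg3 and for Grb10 the table holds 2 windows each, of which 1 is shown. The Dlk1 window held 9 CG, a number reached by 45.782% of windows. The Grb10 window was dense, with 45 CG, a number reached by 1.933% of windows. The palindrome TGACGTCA, which reads the same on both strands and is the core of a cAMP response element, occurred in the Meg3 window and in 1.79% of all windows. It did not occur in the other 2 windows printed here. The Rian window, not printed, held 0 CG. Methylation was not measured in this series, so the windows show sequence and position alone.

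The values that chose the classes are given as a description. Levels are log2 intensities on arrays centred near 0, and the clones are always listed in the order iPSC-44, iPSC-47 and iPSC-49, then iPSC-45, iPSC-46 and iPSC-48. Meg3 read 3.13, 3.17 and 3.19 in the Meg3-normal clones, against 1.88, 1.85 and 0.49 in the Meg3-low clones. Rian read 3.78, 3.73 and 3.62 in the Meg3-normal clones, against 2.21, 2.43 and 1.41 in the Meg3-low clones. The 3 Meg3-normal clones lay close together and the 3 Meg3-low clones did not: the mean of Meg3 was 3.16 ± 0.031 in the Meg3-normal clones and 1.41 ± 0.79 in the Meg3-low clones (SD, n = 3 each), beside 2.97 ± 0.29 in ESC (SD, n = 4). iPSC-48 was far below the limit of the rule, with Meg3 at -2.48 and Rian at -2.13 log2 units relative to the ESC mean. iPSC-45 and iPSC-46 lay just outside it, with Meg3 at -1.09 and -1.12 and Rian at -1.33 and -1.11 relative to the ESC mean. Just inside it no clone was found, because the 3 Meg3-normal clones were 0.16 to 0.22 above the ESC mean for Meg3 and 0.07 to 0.24 above it for Rian.

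The other probe sets of both RNAs, which the rule did not read but which measure the same transcripts, separated the classes as well, though the order of clones within a class was not the same on all of them. The Meg3-normal mean exceeded the Meg3-low mean by 1.65, 1.28 and 2.03 log2 units on the 3 further Meg3 probe sets. On the 2 dimmer Rian probe sets it did so by 3.66 and 3.30, wider than the 1.70 on the brightest set. The classes did not overlap on any of the 7 probe sets. One of the dim Rian sets read 2.08, 2.03 and 1.83 in the Meg3-normal clones, against -1.25, -1.17 and -2.61 in the Meg3-low clones, and ESC themselves spanned 0.16 to 2.06 on it.

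**Figure D1:**
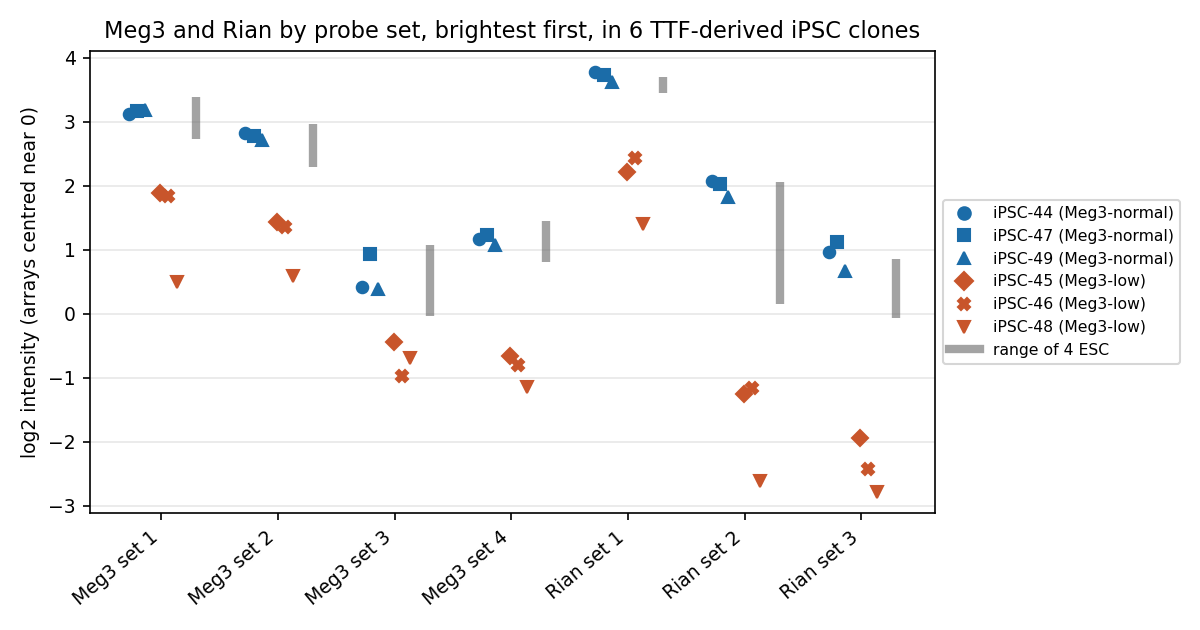
Log2 intensity (vertical axis) of the 4 Meg3 and 3 Rian probe sets, brightest first (horizontal axis), with 1 point per TTF-derived clone and a grey bar for the range of the 4 ESC. The 3 Meg3-normal clones sit above the 3 Meg3-low clones on all 7 probe sets, and iPSC-48 is the lowest clone on the brightest set of each RNA.

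Across the rest of the transcriptome, no gene passed the test between the classes. Of the 11805 genes other than Meg3 and Rian, limma called 0 at an adjusted p under 0.05 (0% of genes), with a smallest adjusted p of 0.843. At an unadjusted p under 0.05 there were 599 genes (5.07%), 220 higher in Meg3-normal clones (1.86%) and 379 lower (3.21%). The 3 clones of one class all lay above the 3 of the other for 535 genes higher in Meg3-normal clones (4.53%) and 734 lower (6.22%). All named differences below are Meg3-normal minus Meg3-low and did not pass. The median standard error of a difference was 0.11 log2 units, and for 98.14% of genes (11586) the 95% confidence interval of the difference lay within 1 log2 unit, a 2-fold change, of 0 in either direction. The number of arrays limits this precision.

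Most of the large differences came with 1 clone. iPSC-46 correlated with the other 5 clones at 0.990 to 0.991, whereas each of the others reached 0.996 to 0.998 with its nearest clone, and the first principal component, with 50.4% of the variance, set iPSC-46 apart. When genes were taken in runs of 25 to 29 along each chromosome, 17 of 235 runs in iPSC-46 deviated by more than 0.2 log2 units from the other clones (10 on chromosome 11, 6 on chromosome 14 and 1 on chromosome 2). In each of the other 5 clones the number was 0. From Ncoa4 to Tmtc4 on chromosome 14, the 159 genes had a median of -0.71 in iPSC-46, with 147 of them below all 5 other clones. From Poldip2 to Tbcd on chromosome 11, the 254 genes had a median of 0.36, with 212 above all 5. In the same stretches the other clones had medians between -0.06 and 0.05. DNA copy number was not measured, and its part in these shifts was not tested.

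**Figure D2:**
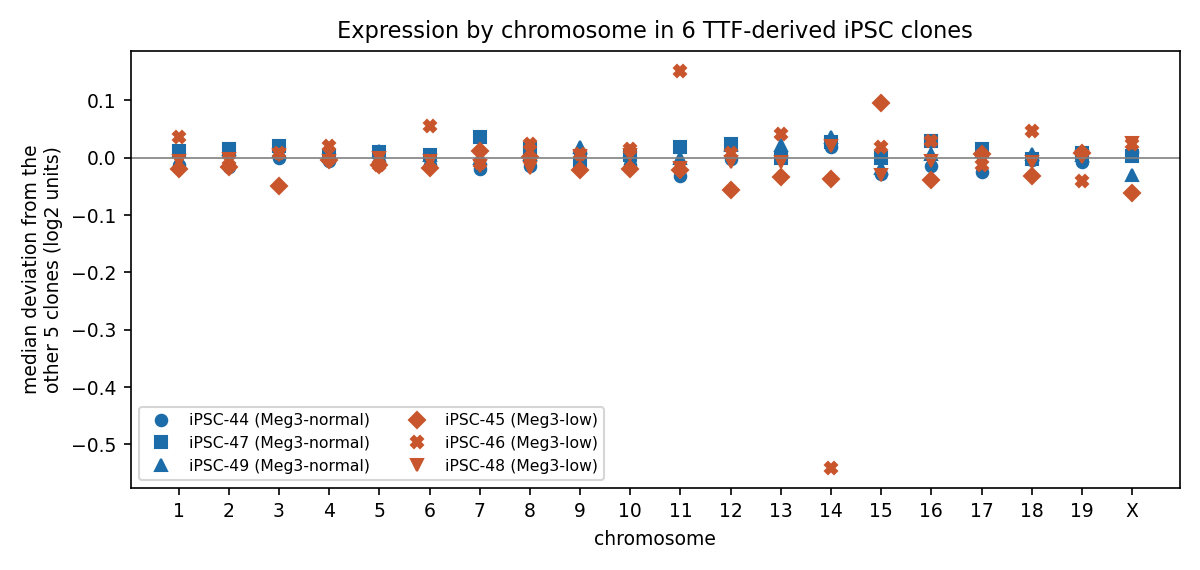
Median deviation of each clone from the other 5 TTF-derived clones, in log2 units (vertical axis), over the genes of each chromosome (horizontal axis) with a mean above 0. iPSC-46, a Meg3-low clone, stands at -0.54 on chromosome 14 and 0.15 on chromosome 11; on chromosome 15 iPSC-45 stands at 0.095.

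The shifted stretches weighed on the class difference. The median difference over the chromosome 14 stretch was 0.25 with 6 clones and 0.03 without iPSC-46, and over the chromosome 11 stretch -0.12 with 6 clones and -0.004 without it. With 6 clones, 8 genes differed by at least 1 log2 unit between the class means, 2 higher and 6 lower in Meg3-normal clones. Without iPSC-46 there were 0 such genes, limma again called 0 genes at an adjusted p under 0.05 with 804 at an unadjusted p under 0.05, and the smallest adjusted p was 0.620. Classes that did not overlap became more frequent without iPSC-46, as fewer clones are compared, with 1060 genes higher (8.98%) and 1501 lower (12.7%) in Meg3-normal clones.

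The 8 genes, named because so few reached this size and chosen after their values were seen, fall in 3 places. Ccnb1ip1, which encodes a ubiquitin ligase needed in meiotic crossover, and Slc7a7, an amino acid transporter, lie in the chromosome 14 stretch. Slc7a7 read 3.55, 3.54 and 3.66 in the Meg3-normal clones, against 3.66, 0.73 and 3.17 in the Meg3-low clones. Only iPSC-46 was low, and the difference of 1.07 was 0.17 without it. Uty, Eif2s3y and Uba1y are on chromosome Y, and Xlr4b, Xlr5c and Rhox5 on chromosome X. Eif2s3y, which encodes a translation initiation factor subunit, read -0.31, 0.38 and 0.59 in the Meg3-normal clones, against 2.77, 3.78 and -0.81 in the Meg3-low clones. Uty, a relative of histone demethylases, read -4.31, -4.32 and -3.96 in the Meg3-normal clones, against -2.98, -0.33 and -4.09 in the Meg3-low clones. Both read above the Meg3-normal clones in iPSC-45 and iPSC-46 but not in iPSC-48, and the classes overlapped. Uty was still below the array median in iPSC-45 (-0.18) and in iPSC-46 (-0.15). Rhox5, a homeobox gene of the X chromosome, read 1.15, 1.50 and 1.40 in the Meg3-normal clones, against 2.41, 3.58 and 1.46 in the Meg3-low clones, with iPSC-48 again near the Meg3-normal clones.

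**Figure D3:**
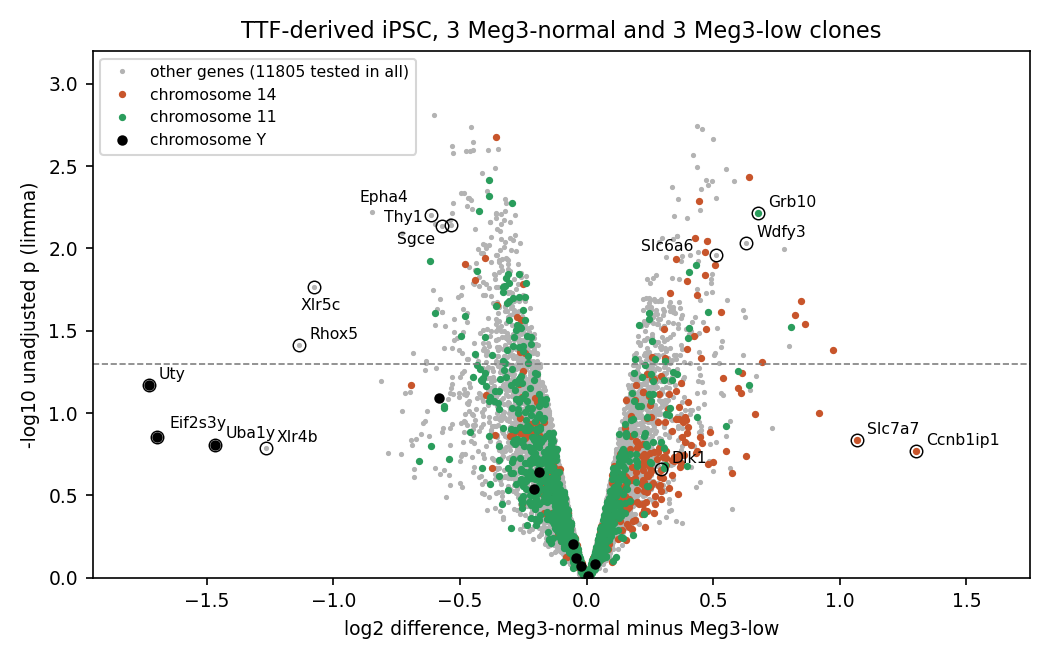
Log2 difference between class means (Meg3-normal minus Meg3-low, horizontal axis) against -log10 of the unadjusted limma p (vertical axis) for 11805 genes, with chromosomes 14, 11 and Y coloured and the dashed line at 0.05. Circled genes are the 8 with a difference of at least 1 log2 unit, the 3 named genes of smallest p in each direction, and Dlk1; none passed after adjustment.

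The naming rule took genes with classes that did not overlap, a difference of at least 0.5 and a mean above 0. By it 20 genes qualified, 11 higher and 9 lower in Meg3-normal clones. The limit of 12 per direction was not reached, so the unadjusted p set their order and excluded none. Their absolute differences ran from 0.50 to 0.97 with a median of 0.61, and without iPSC-46 from 0.13 to 0.78 with a median of 0.38. At an unadjusted p under 0.05 there were 16 of them with 6 clones and 14 without iPSC-46. Over all 11805 genes tested there were 599 and 804. The 20 were picked from these same arrays because their classes were apart, so their counts are no support for them. Only Grb10 and Ltbp2 kept a difference of at least 0.5 without that clone. The 3 imprinted genes among the 20 are given first.

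Grb10 encodes an adaptor that restrains insulin and IGF signalling and is imprinted in the mouse. It read 4.89, 4.97 and 4.88 in the Meg3-normal clones, against 4.48, 4.44 and 3.79 in the Meg3-low clones, and 4.78 to 4.98 in ESC. The Meg3-normal clones lay in the ESC range and all 3 Meg3-low clones below it. The difference was 0.68 (SE 0.18, limma adjusted p 0.843), and 0.78 without iPSC-46. It was 0.45 without iPSC-48, the clone with the lowest Grb10, Meg3 and Rian.

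Sgce, which encodes a sarcoglycan and is expressed from the paternal allele, read 0.076, -0.11 and -0.22 in the Meg3-normal clones, against 0.25, 0.75 and 0.35 in the Meg3-low clones. ESC spanned 0.024 to 0.37, a range that held iPSC-44, iPSC-45 and iPSC-48. iPSC-47 and iPSC-49 lay below it and iPSC-46 above it. The difference was -0.53 (SE 0.15, limma adjusted p 0.843). Cdkn1c, the maternally expressed cyclin-dependent kinase inhibitor, read -0.042, -0.048 and -0.055 in the Meg3-normal clones, against 0.12, 1.12 and 0.13 in the Meg3-low clones. ESC spanned -0.61 to -0.20, below every clone of both classes. The 3 Meg3-normal clones agreed closely for Cdkn1c, and its difference of -0.50 was -0.17 without iPSC-46. Of the 33 imprinted genes measured outside the Dlk1-Dio3 region, limma called 0, and 11 were higher and 22 lower in Meg3-normal clones with a median difference of -0.047, beside -0.018 over all genes tested. At an unadjusted p under 0.05 there were 3 higher and 4 lower of the 33 (1.86% and 3.21% over all genes), among them Usp29 at 0.34 and Airn at 0.35.

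Within the Dlk1-Dio3 region, Dlk1 was the one further gene measured with a probe set named here. Dlk1 encodes a transmembrane ligand related to Notch ligands. It read -0.57, -0.37 and -0.66 in the Meg3-normal clones, against -1.01, -0.29 and -1.18 in the Meg3-low clones, and -1.48 to -0.25 in ESC. The classes overlapped through iPSC-46 alone. The difference was 0.29 (SE 0.22, limma adjusted p 0.843). It was 0.56 without iPSC-46 (limma adjusted p 0.620) and 0.12 without iPSC-48. Of the 10 measured genes next to the region, none passed, and the differences lay between -0.22 for Degs2, a sphingolipid enzyme, and 0.21 for Wdr20, a partner of ubiquitin-specific proteases. Yy1, a zinc-finger transcription factor upstream of the region, differed by 0.022 (SE 0.082).

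**Figure D4:**
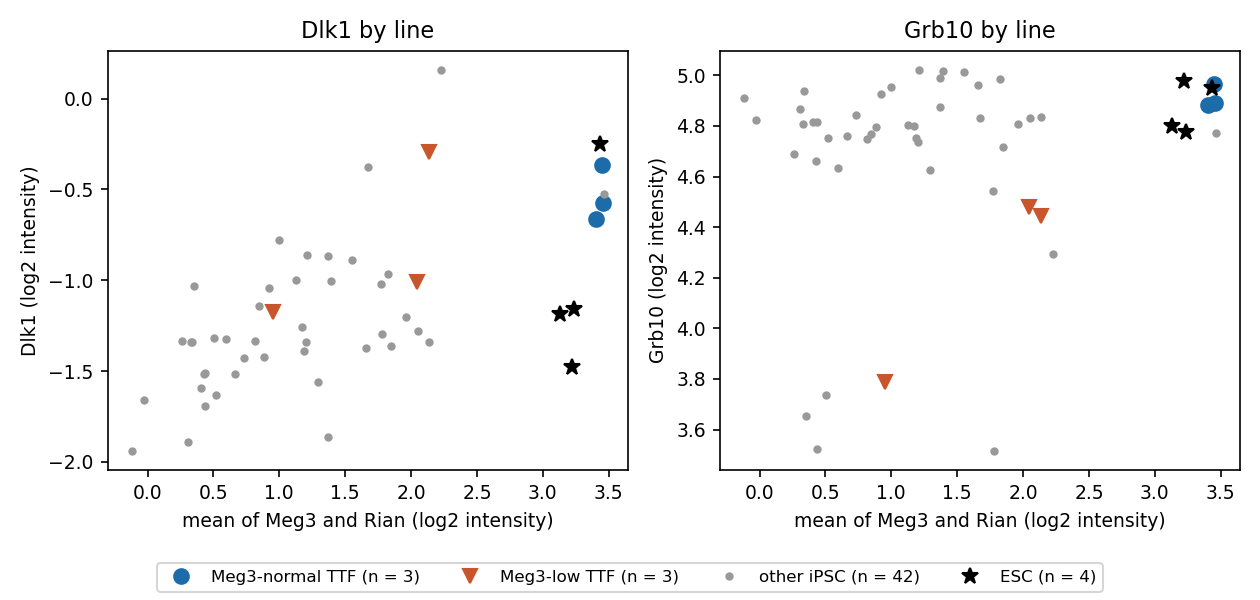
Dlk1 (left) and Grb10 (right) log2 intensity on the vertical axes against the mean of Meg3 and Rian on the horizontal axes, 1 point per line. The 3 Meg3-normal clones lie beyond 3.40 on the horizontal axis with Grb10 between 4.88 and 4.97, and the 3 Meg3-low clones lie between 0.95 and 2.14 with Grb10 between 3.79 and 4.48.

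Pou5f1, Sox2 and Nanog read well above the array median in all 6 clones. The series holds no line labelled as other than pluripotent, so this is a limited check of the labels. Pou5f1, the core factor Oct4, read 4.85, 4.93 and 4.95 in the Meg3-normal clones, against 4.86, 4.89 and 4.92 in the Meg3-low clones, and the difference was 0.019 (SE 0.079). Sox2, its DNA-binding partner, differed by 0.15 (SE 0.089), and Nanog by 0.12 (SE 0.10). Klf4, a reprogramming factor and naive-state regulator, read 3.90, 4.14 and 4.11 in the Meg3-normal clones, against 3.90, 3.02 and 3.63 in the Meg3-low clones. The difference of 0.53 (SE 0.21, limma adjusted p 0.843) was 0.28 without iPSC-46. Myc, a growth-promoting transcription factor, read 2.14, 2.07 and 2.13 in the Meg3-normal clones, against 2.67, 2.11 and 2.10 in the Meg3-low clones, with iPSC-45 alone apart. Whether these probe sets also read cassette transcripts was not tested. Markers of other lineages varied in level. For blood, Ptprc read at most -3.84 and Cd53, a leukocyte tetraspanin, -0.42 to 0.52 in the Meg3-normal clones and -0.21 to 0.75 in the Meg3-low clones. For trophoblast, Elf5 read at most -2.87, Krt7 at most -0.24 and Cdx2 at most -0.29, and for primitive endoderm Sox17 at most -3.19, Gata4 at most -1.78 and Gata6 at most -1.34 in any of the 6 clones. Pax6, a neuroectoderm transcription factor gene, reached 1.72 in iPSC-49. Without detection calls these levels do not show which of the markers are expressed.

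Naive and core pluripotency genes were mostly a little higher in Meg3-normal clones. Of 27 measured, 23 were higher and 4 lower, with a median difference of 0.15 (0.13 without iPSC-46), beside -0.018 (-0.014 without iPSC-46) over all genes tested. limma called 0 of them, and 4 of the 27 were higher at an unadjusted p under 0.05 (1.86% over all genes). The mean of the list was 3.42, 3.53 and 3.59 in the Meg3-normal clones, against 3.36, 3.24 and 3.43 in the Meg3-low clones, and 3.57 to 3.70 in ESC. The classes overlapped, since iPSC-48 stood above iPSC-44. Beside Klf4, the genes at an unadjusted p under 0.05 were Klf5, a Krüppel-like factor of the naive state in the chromosome 14 stretch, at 0.86 (0.44 without iPSC-46), Nr0b1, an orphan nuclear receptor of ESC, at 0.53 (0.28 without iPSC-46), and Tcl1, a coactivator of AKT signalling, at 0.29 (0.26 without iPSC-46).

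Fibroblast and feeder genes were mostly lower in Meg3-normal clones. Of 34 measured, 32 were lower and 2 higher, with a median difference of -0.34 and of -0.22 without iPSC-46. The median over all genes was -0.018, and -0.014 without iPSC-46. limma called 0 of the 34. At an unadjusted p under 0.05, 9 of them were lower (3.21% over all genes), and for 4 the classes did not overlap with Meg3-normal lower (6.22% over all genes). The mean of the list was 1.91, 1.58 and 1.72 in the Meg3-normal clones, against 2.08, 2.27 and 1.78 in the Meg3-low clones, and 0.52 to 1.66 in ESC. iPSC-44 was above iPSC-48, so the classes overlapped. Thy1, a surface glycoprotein of fibroblasts, read 0.48, 0.31 and 0.33 in the Meg3-normal clones, against 0.87, 1.29 and 0.67 in the Meg3-low clones. Col1a1, the chief collagen of connective tissue, read 3.73, 3.18 and 3.47 in the Meg3-normal clones, against 4.11, 4.02 and 3.57 in the Meg3-low clones. Among the measured markers taken as defining (Col1a1, Col3a1, Dcn, Postn, Thy1, Twist2 and Prrx1), the lowest reading was -0.036, for Twist2 in iPSC-47. Other members of the list read lower, such as Mmp2, a matrix metalloproteinase, at -0.98 in iPSC-49. In bulk RNA, fewer cells of a type and less RNA per cell cannot be told apart. With the list mean as a covariate, limma called 0 genes (unadjusted p under 0.05 for 261), and 19 of the 20 genes of the naming rule had a smaller absolute difference, with a median of 0.25 in place of 0.61. The smallest was 0.027, for Ntn1, and the exception was Grb10, at 0.96. All 20 kept their sign. Dlk1, which is not among the 20, was at 0.60. The list mean came from the same 6 arrays, was highest in iPSC-46 and included Thy1, itself among the 20. The smaller differences with this covariate therefore cannot be told apart from the part of iPSC-46.

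Among the 20 named genes, 5 lie on chromosome 14. Fgf17, a fibroblast growth factor, read 0.59, 0.88 and 0.68 in the Meg3-normal clones, against 0.018, -1.29 and 0.50 in the Meg3-low clones. Shisa2, which encodes an endoplasmic reticulum protein that limits Wnt and FGF receptor maturation, read 1.74, 1.97 and 2.04 in the Meg3-normal clones, against 1.72, -0.33 and 1.60 in the Meg3-low clones. iPSC-46 was the lowest clone for both, and without it their differences were 0.46 and 0.25. Slc15a1, a proton-coupled peptide transporter, and Atg14, a subunit of the autophagy lipid kinase complex, differed by 0.82 and 0.53, and by 0.46 and 0.30 without iPSC-46.

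Outside chromosome 14, further named genes had higher means in Meg3-normal clones. Wdfy3, which encodes an adaptor for selective autophagy, read 0.64, 0.89 and 0.69 in the Meg3-normal clones, against 0.32, -0.32 and 0.34 in the Meg3-low clones. Slc6a6, the taurine transporter, read 2.60, 2.69 and 2.49 in the Meg3-normal clones, against 1.90, 1.92 and 2.43 in the Meg3-low clones. Their differences were 0.63 (SE 0.18) and 0.51 (SE 0.15), and 0.41 and 0.43 without iPSC-46. Averaged over its probe sets, Slc6a6 differed by only 0.11. Tcf7l1, the repressive Wnt-pathway transcription factor of ESC, differed by 0.62, the serpin gene Serpinb6c by 0.62 and the axon guidance gene Ntn1 by 0.55, with iPSC-46 the lowest clone for each. Without iPSC-46 the differences were 0.29 for Tcf7l1, 0.36 for Serpinb6c and 0.13 for Ntn1.

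The genes with lower means in Meg3-normal clones included a receptor, an adhesion and a matrix gene. Epha4, an ephrin receptor tyrosine kinase, read -0.27, -0.20 and -0.37 in the Meg3-normal clones, against 0.22, 0.72 and 0.065 in the Meg3-low clones. The difference was -0.62 (SE 0.17, limma adjusted p 0.843), and -0.42 without iPSC-46. Ltbp2, a matrix protein of the latent TGF-beta binding family, read 0.88, 0.21 and 0.74 in the Meg3-normal clones, against 1.39, 1.36 and 0.89 in the Meg3-low clones, a difference of -0.61 that was -0.53 without iPSC-46. Tex15, which is needed in meiosis and piRNA-directed silencing, differed by -0.63, and Klhl13, an adaptor of a ubiquitin ligase, by -0.54, and iPSC-46 was the highest clone for both. Psors1c2 and the interferon-inducible Ifi27l2a differed by -0.57 and -0.51. Without iPSC-46 the differences were -0.28 for Tex15, -0.21 for Klhl13, -0.37 for Psors1c2 and -0.29 for Ifi27l2a.

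**Figure D5:**
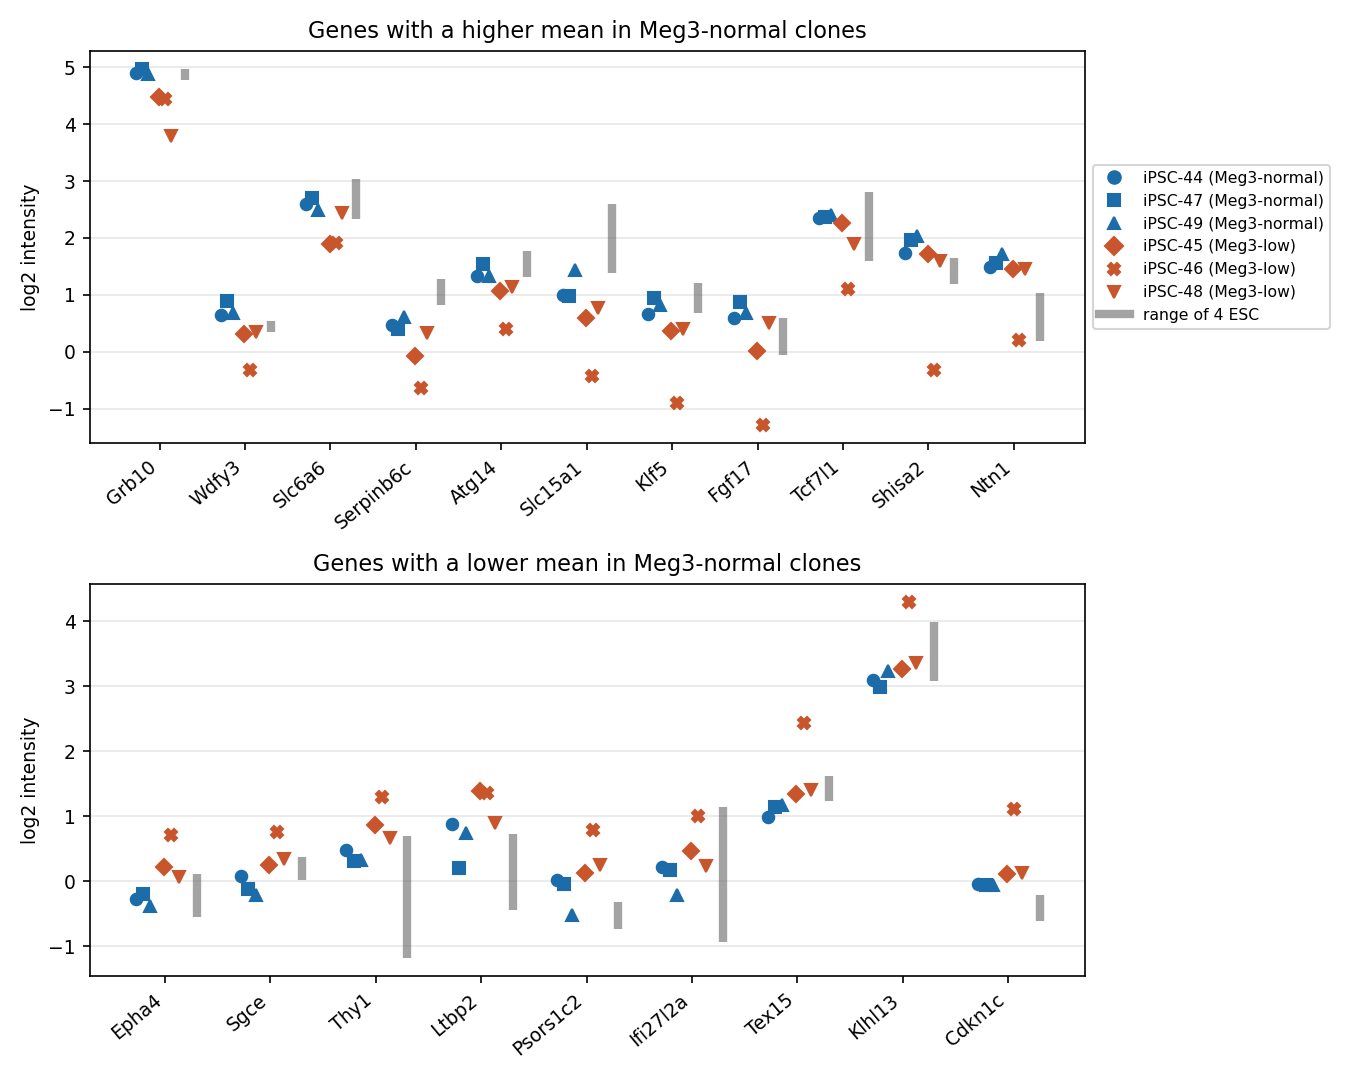
Log2 intensity (vertical axis) of the 20 named genes (horizontal axis), 11 with higher means (upper) and 9 with lower means (lower) in Meg3-normal clones, with 1 point per clone and a grey bar for the range of the 4 ESC. Among the Meg3-low clones, iPSC-46 lies farthest from the Meg3-normal clones for all but Grb10, Slc6a6 and Ltbp2.

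Further lists are given by count and median, beside the -0.018 over all genes. DNA methylation, Polycomb and imprint protection genes had a median difference of 0.050 over 22 genes, with 5 non-overlapping and higher in Meg3-normal clones (4.53% over all genes) and 0 lower (6.22% over all genes). Uhrf1, which recruits the maintenance DNA methyltransferase, read 4.88, 4.90 and 4.91 in the Meg3-normal clones, against 4.65, 4.63 and 4.74 in the Meg3-low clones, a difference of 0.22 (SE 0.080, limma adjusted p 0.843). Jarid2, a Polycomb cofactor, and Setdb1, a histone methyltransferase, differed by 0.15 and 0.13. The largest absolute difference in the list was that of Ezh1, a Polycomb methyltransferase, at -0.35 (-0.089 without iPSC-46). Amino acid and endoplasmic reticulum stress genes were lower for 19 of 21 genes with a median of -0.12, and without iPSC-46 the median was -0.0055. Proliferation genes had a median of 0.0093 over 25 genes and p53 targets of 0.020 over 19. Primitive endoderm genes had a median of -0.0082 over 20 genes, with 10 higher and 10 lower in Meg3-normal clones. Dab2, an endocytic adaptor of that lineage, read -1.11, -1.45 and -1.15 in the Meg3-normal clones, against -0.39, 0.084 and -0.87 in the Meg3-low clones. Its difference was -0.85, and Lamc1 of the same list went the other way, at 0.37. Medians lay between -0.10 for germ cell and meiosis genes and 0.058 for cholesterol synthesis genes in the epiblast, 2-cell-like, mesoderm, neuroectoderm, trophoblast, germ cell, blood, immediate early, glycolysis, cholesterol and interferon lists. Without iPSC-46 both of these medians had the other sign, at 0.080 for germ cell and meiosis genes and -0.015 for cholesterol synthesis genes. The 4 sex-linked genes were all lower in Meg3-normal clones, with a median of -0.94 (-0.44 without iPSC-46). limma called 0 genes in each of these lists.

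The 20 named genes were set against the 42 iPSC clones of other origins, which the class rule did not use, by fitting each gene on the mean of Meg3 and Rian with the origin group as a factor. In that fit, limma called 0 of 11805 genes (0%). Unadjusted, p was under 0.05 for 399 genes (3.38%), and no adjusted p was below 0.9998. Dlk1 had a slope of 0.30 per log2 unit of the Meg3 and Rian mean (unadjusted p 0.00087, limma adjusted p 0.9998), with the same sign as in the TTF clones. The slope of Grb10 was -0.11, opposite in sign to its difference in the TTF clones. Of the 20 named genes, 3 (15%) had a slope of the sign of their class difference, beside 41.76% of all genes tested. In PF-derived clones of mouse 1, iPSC-19 had Meg3 at 3.41 and iPSC-20 at 0.78, and 11 of the 20 genes (55%) differed between that pair in the sign of the TTF classes, beside 43.52% of all genes, with no replicate to test it.

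Over all 48 iPSC, after subtracting the mean of each origin group, Meg3 and Rian correlated at 0.89. The gene most like their mean was Dlk1, a dim gene, with a Pearson correlation of 0.55. Next came Hgs, an endosomal sorting protein, at 0.48 and Esam, an endothelial adhesion molecule, at 0.47. Lhx8, a LIM homeobox gene, and Itgb1bp2, an integrin-binding protein of muscle, followed at 0.47 and 0.45. Over the 6 TTF clones alone, the correlation was 0.66 for Dlk1, -0.16 for Hgs, 0.55 for Esam, 0.64 for Lhx8 and 0.69 for Itgb1bp2. These are descriptions over clones that share animals and a cassette. Grb10 had a correlation of 0.12 over the 48 clones, 0.98 over the 6 TTF clones and -0.30 over the other 42. It was picked for its difference between classes that Meg3 and Rian set in the same 6 clones. A high correlation there follows largely from that choice and is no separate support.

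Distance to ESC was compared last, as a count without a test. The Meg3-normal mean was nearer the ESC mean than the Meg3-low mean for 14 of the 20 named genes (70%), beside 57.85% of all genes tested, and without iPSC-46 for 12 (60%), beside 62.52%. The mean correlation with the 4 ESC arrays was 0.987 to 0.989 for the Meg3-normal clones and 0.983 to 0.987 for the Meg3-low clones. The classes overlapped, with iPSC-48 at 0.9871 and iPSC-44 at 0.9865. Meg3 and Rian, which defined the classes by nearness to ESC, were among the genes correlated.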

How the data were processed

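Of the 59 Affymetrix arrays, those of 6 TTF-derived iPSC, 4 ESC and 42 other iPSC clones entered the comparisons. The deposited table holds log2 intensities for 22626 probe sets. Base 2 and the centring are read from the range of the values. How the authors corrected background and summarised probes, the scan dates and their genome build were not given in the sources used here, so array batches could not be tested. No detection calls were used.

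Names came from the platform annotation joined to RefSeq (GRCm38.p6). Of the probe sets 18003 carried a single gene, 287 carried several and 4336 carried none, which left 11807 genes, 4150 of them with more than 1 probe set. The brightest probe set on average stood for its gene. Classes were set by Meg3 and Rian, which were left out of the tests. limma 3.58.1 in R 4.3.3 (lmFit, eBayes, Benjamini-Hochberg over 11805 genes, threshold 0.05) compared the 3 Meg3-normal with the 3 Meg3-low clones. Adjusted p-values are from this fit unless another limma fit is named beside them. Those are the slope fit, the fit over all groups and fits with a clone left out. The scripts were tested on simulated data. The members, the gene lists and the genes open to naming were chosen with earlier results of these data known. The rule named up to 12 genes per direction (where none passed, those of smallest unadjusted p with classes that do not overlap, a difference of at least 0.5 and a mean above 0), the Dlk1-Dio3 genes and their neighbours, Pou5f1, Sox2, Nanog, Klf4 and Myc, and up to 4 genes of each list. Only part of them are printed. An exact permutation test of 3 against 3 cannot go below a p of 0.1. Alternatives were quantile normalization, a filter on dim genes, other uses of probe sets, another variance model, 1 fit over all groups, a fibroblast covariate and leaving out clones.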

Additional observations from a re-analysis of the deposited data

Results flagged for a closer look

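A lowest or highest sample far from its nearest neighbour was looked for in 59 sets of values, nearly all of them the 6 TTF clones for a gene, a list mean or a chromosome median. About 1 in 20 such sets is expected to show one by chance, and sets that share a clone or a chromosome are not independent. That share does not apply to genes picked from these same values. All the genes flagged below except Myc were picked for the size of their difference, so their number cannot be weighed against chance. iPSC-46 was the sample apart for Klf5 (-0.89, nearest clone 0.36), Shisa2 (-0.33, nearest 1.60), Ntn1 (0.21, nearest 1.45), Tex15 (2.44, nearest 1.41), Klhl13 (4.30, nearest 3.35) and Cdkn1c (1.12, nearest 0.13). It was also apart for Slc7a7 (0.73, nearest 3.17), Ccnb1ip1 (-1.70, nearest 1.81), Uty (-0.33, nearest -2.98), Uba1y (0.51, nearest -3.22) and Xlr4b (-0.11, nearest -3.33). The median deviation of iPSC-46 stood apart on chromosome 11 (0.15, nearest 0.019) and on chromosome 14 (-0.54, nearest -0.037). iPSC-45 was the sample apart for Myc (2.67, nearest 2.14).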

How the results depend on the processing

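The main comparison called 0 genes, and so did these alternatives, given with their genes at an unadjusted p under 0.05: quantile normalization 572, dim genes left out 308, mean of probe sets 633, trended and robust variance 574, the fibroblast list mean as a covariate 261, and 1 fit over all groups 806. Treating every probe set on its own also gave 0 genes. With the mean of probe sets, the difference was 0.11 for Slc6a6, 0.28 for Ntn1 and -0.32 for Epha4, each smaller in size than in the main fit. For Shisa2 (0.96) and Klhl13 (-0.60) it was larger in size. Leaving out each of the 6 clones in turn gave 0 calls each time, with 278 to 1144 unadjusted. Alternatives chosen after seeing the data were as follows. Without the genes of chromosomes 11, 14, X and Y, 0 were called (510 unadjusted). In 1 fit over all groups, leaving out iPSC-45 gave 2 calls, B4galt6 and Klf4 (0.73, adjusted p 0.0435), and leaving out iPSC-48 gave 35, 23 higher and 12 lower, of which 17 lay in the chromosome 14 stretch, with Wdfy3 at 0.74 (adjusted p 0.0355) and Epha4 at -0.75 (adjusted p 0.0334). Leaving out iPSC-44, iPSC-46, iPSC-47, iPSC-49, or iPSC-45 with iPSC-46, gave 0.

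Signs reversed for 2 genes, Pou5f1 (main difference 0.019) and Myc (main difference -0.18). Pou5f1 read -0.019 with the fibroblast covariate, -0.0012 without iPSC-49 in both fits, and -0.0090 in the fit over all groups without iPSC-45 and iPSC-46. Myc read 0.012 without iPSC-45 in both fits, and 0.018 in the fit over all groups without iPSC-45 and iPSC-46. The cause was not tested. Over the clones left out in turn, Grb10 ran from 0.45 to 0.80, Dlk1 from 0.12 to 0.56, Fgf17 from 0.46 to 1.35, Shisa2 from 0.25 to 1.28, Klf4 from 0.28 to 0.73, Epha4 from -0.75 to -0.42 and Ltbp2 from -0.77 to -0.41. The slope fit called 0 genes under each alternative run, with 227 to 826 unadjusted, and with each clone left out in turn Dlk1 had slopes of 0.26 to 0.35 and Grb10 of -0.14 to -0.030. No paired analysis was possible because the replicate numbers only name clones of 1 group. Signal over background was not available, which limits what can be said of dim genes such as Dlk1.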

Other observations

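Grb10 was low in several clones of chimera 2 other than the TTF clones, a pattern chosen after the values were seen and given as values. Below a log2 intensity of 4 there were 5 of the 15 iPSC of chimera 2, namely iPSC-35, iPSC-36 and iPSC-37 from HSCs, iPSC-40 from GMPs and the Meg3-low TTF clone iPSC-48, with the lowest at 3.52. None of the 33 iPSC of other animals was below 4, and the lowest of them read 4.29. The mean of Meg3 and Rian in the 5 clones ran from 0.35 to 1.78. In the chimera 2 clones outside TTF origin with Grb10 above 4 it spanned much the same range. It ran there from 0.34 in iPSC-38 (Grb10 4.94) to 1.77 in iPSC-43 (Grb10 4.54). In the TTF clones with Grb10 above 4 it ran from 2.05 to 3.46.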
